A study of Mus musculus with 3 samples.

Results

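The cells described here were chosen by their raw UMI counts as the monocytes and macrophages of dissociated MC38-Ova tumors. A kept cell, one with 1000 to 6000 detected genes and under 7.5% mitochondrial UMIs, was a member when it carried at least 5 Lyz2 and at least 3 Cst3 UMIs, at most 1 Cd3e UMI, and no UMI of Ncr1 or Cd79a. A UMI is a molecular tag that counts 1 captured RNA molecule. Of 31943 kept cells in 3 libraries, 147 (0.46%) met this rule, and they are called gated cells below. Because the rule used Lyz2, Cst3, Cd3e, Ncr1 and Cd79a, the levels of these genes are given only as a description.

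All 3 libraries came from wild-type C57BL/6 Kaede mice, which carry a green fluorescent protein that violet light turns red. The mice received 250000 MC38-Ova colon carcinoma cells under the skin and isotype control antibody. Tumors were photoconverted on day 13 and taken on day 15, so that 48 h later Kaede-red cells were those already in the tumor at conversion and Kaede-green cells were mostly those that came in afterwards. Live CD45+ TER119- cells of each color were sorted, and CD11b+ NK1.1- myeloid cells were sorted away, a gate that removes most monocytes and macrophages. There were 2 Kaede-green libraries, labelled as biological replicates, and 1 Kaede-red library. A test between the colors would rest on the spread of the 2 Kaede-green libraries alone, so none was made. The intervals below cover counting error only.

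Monocytes are blood phagocytes that enter inflamed tissue and tumors and can mature there into macrophages or into cells that present antigen. Macrophages engulf dead cells and debris, make the complement protein C1q and release cytokines. Conventional dendritic cells are a separate lineage that depends on the receptor Flt3. They also contain lysozyme 2 (Lyz2) and cystatin C (Cst3) transcripts, so a gate on these genes does not by itself part them from monocytes. Type 1 conventional dendritic cells (cDC1) cross-present antigen to CD8 T cells, and type 2 (cDC2) mainly activate CD4 T cells.

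The gate genes Lyz2 and Cst3 and the marker Il1b can be read with their regulatory sequence. Lyz2 (GRCm38 chr10:117277331-117282321) encodes a bacteria-degrading enzyme of phagocytes, Cst3 (chr2:148871722-148875692) an inhibitor of cysteine proteases, and Il1b (chr2:129364570-129371139) the cytokine interleukin 1 beta. All 3 are protein-coding genes on the minus strand. The windows from 250 bases before to 50 bases after each start site are given 5' to 3' from RefSeq on GRCm38.p6, because the transcripts varied in opposite ways (Lyz2 and Cst3) or were found in nearly every gated cell (Il1b). Capitals mark the word GAGGAA or its reverse TTCCTC, 1 form of the site bound by PU.1. PU.1 is the product of Spi1 and a lineage factor of myeloid cells.
Lyz2, chr10:117282223-117282522, minus strand: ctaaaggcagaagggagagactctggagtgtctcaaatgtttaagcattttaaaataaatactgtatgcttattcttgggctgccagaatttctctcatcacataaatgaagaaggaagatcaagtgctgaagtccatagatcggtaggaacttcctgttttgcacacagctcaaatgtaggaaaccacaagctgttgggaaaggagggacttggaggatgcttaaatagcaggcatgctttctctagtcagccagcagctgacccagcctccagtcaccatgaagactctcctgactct
Cst3, chr2:148875463-148875762, minus strand: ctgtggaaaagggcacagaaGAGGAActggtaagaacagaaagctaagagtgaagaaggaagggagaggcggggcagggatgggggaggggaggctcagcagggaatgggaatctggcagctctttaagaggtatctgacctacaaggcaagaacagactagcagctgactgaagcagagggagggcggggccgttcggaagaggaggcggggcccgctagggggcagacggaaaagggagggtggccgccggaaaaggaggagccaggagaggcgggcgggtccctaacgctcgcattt
Il1b, chr2:129371090-129371389, minus strand: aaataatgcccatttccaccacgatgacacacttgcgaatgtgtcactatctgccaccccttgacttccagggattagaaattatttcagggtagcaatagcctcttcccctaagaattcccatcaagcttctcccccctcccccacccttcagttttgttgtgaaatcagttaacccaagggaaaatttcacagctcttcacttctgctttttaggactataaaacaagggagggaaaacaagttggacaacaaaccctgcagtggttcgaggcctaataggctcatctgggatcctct
The word occurred 1 time in the Cst3 window and was not found in the Lyz2 or Il1b window, against 28.3% of 32851 promoter windows that held it on either strand. Other forms of the site were not searched for, so a window without the word may still hold one. Spi1 itself was detected in 142 of 147 gated cells.

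The Kaede-green 1, Kaede-green 2 and Kaede-red libraries held 10000, 11078 and 10865 kept cells, with 87193225, 129438292 and 175848894 UMIs over all deposited cells. Gated cells numbered 27, 83 and 37, and values by library keep this order throughout. They made up 0.27% of kept cells in Kaede-green 1 (95% Clopper-Pearson interval 0.178 to 0.393%), 0.749% in Kaede-green 2 (0.597 to 0.928%) and 0.341% in Kaede-red (0.24 to 0.469%). The Kaede-red share lay between those of the Kaede-green libraries, whose intervals did not overlap. Without the gated cells that held any UMI of 9 lymphoid genes, the shares were 0.18%, 0.217% and 0.202%, and the gap between the Kaede-green libraries was not seen. How far the CD11b gate of the sort set these shares was not tested.

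Gated cells were deeply covered, with medians of 14630, 16351 and 13197 UMIs in Kaede-green 1, Kaede-green 2 and Kaede-red. The other kept cells had medians of 6622, 8470 and 12074 UMIs. The libraries shared 20 to 36 cell barcodes per pair among all deposited cells, and no gated cell carried a barcode found in another library. Of the 147 gated cells, 7 were among the 8% of cells with the highest Scrublet doublet scores.

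The label held for most gated cells of the Kaede-red library. In the Kaede-green libraries it did not hold for many, and most gated cells there carried dendritic cell genes. Flt3, the growth factor receptor of the conventional dendritic lineage, was detected in 81.5% of Kaede-green 1 and 66.3% of Kaede-green 2 gated cells, and in 8.11% of Kaede-red gated cells. Csf1r, the receptor that monocytes and macrophages depend on, was detected in 25.9%, 41.0% and 89.2% in the same order. Both Kaede-green libraries thus stood apart from Kaede-red in both of these genes, beyond counting error.

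The same order held at equal depth. After each cell was thinned to 3000 UMIs, a depth that every gated cell reached, Flt3 was detected in 33.3%, 24.1% and 5.41% of gated cells, and Csf1r in 7.41%, 15.7% and 56.8%. At this depth the Flt3 intervals of the Kaede-green libraries (16.5 to 54.0% and 15.4 to 34.7%) overlapped that of Kaede-red (0.661 to 18.2%). Those of Csf1r did not overlap it. Free RNA gave far lower shares. In 500 other kept cells per library with at least 2 Cd3e UMIs, which are T cells by this marker and had median depths of 7623, 9344.5 and 11678 UMIs, thinned detection of Flt3 was 0.6%, 0.4% and 0.2%, and of Csf1r 0%, 0.6% and 0%.

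**Figure D1:**
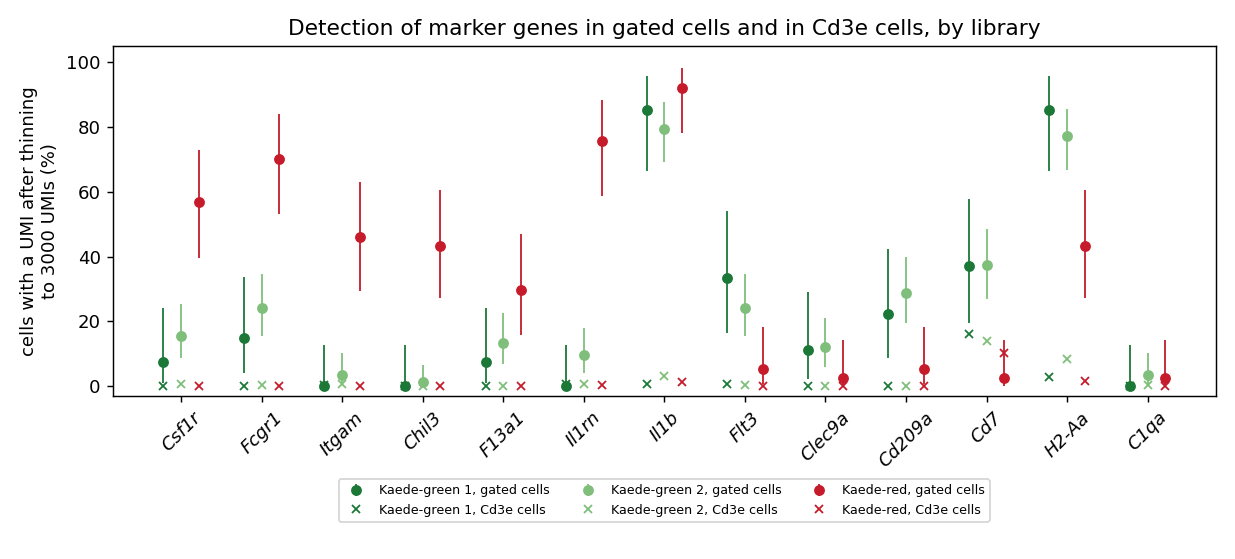
Share of cells with a UMI of each gene after thinning to 3000 UMIs (y axis, %), for gated cells (circles, with 95% Clopper-Pearson intervals) and 500 Cd3e cells per library (crosses), by library. Kaede-red gated cells were highest for Csf1r (56.8%) and lowest for Flt3 (5.41%), while Il1b was found in most gated cells of all 3 libraries.

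Cells could be sorted by small sets of genes of each lineage. Counting any UMI of the monocyte genes F13a1, Chil3, Vcan and Hp and of the dendritic genes Flt3, Zbtb46, Xcr1, Clec9a and Cd209a, 26 of 37 Kaede-red gated cells carried monocyte genes alone (70.3%, interval 53.0 to 84.1%). None of the 27 Kaede-green 1 cells and 4 of the 83 Kaede-green 2 cells did so. Dendritic genes alone were carried by 22 Kaede-green 1, 60 Kaede-green 2 and 3 Kaede-red cells, and both sets by 4, 17 and 5 cells. Chil3, Vcan and Hp were also called higher in Kaede-red in these same cells, and Flt3 and Clec9a lower, as given below. The split by color is thus in part set by the choice of genes and is a description only. These counts hold for the small sets only, since other genes of the classical monocyte list were widely found. Ly6c2 was detected in 83.1%, Ccr2 in 74.7% and Plac8 in 79 of 83 of the Kaede-green 2 gated cells.

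The sort's own marker followed the same line. Itgam, which encodes CD11b, was detected in 2 Kaede-green 1 gated cells, in 17 from Kaede-green 2 and in 32 from Kaede-red. Its level was 4.84, 28.7 and 202 counts per 1000000 UMIs (CPM) of the summed gated cells. Most Kaede-red gated cells therefore contained RNA for the protein by which myeloid cells had been removed. How the protein level of these cells related to the gate was not tested.

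The 5 genes given as markers of the type behaved unequally. Il1b was detected in 24 of 27, 75 of 83 and 36 of 37 gated cells by library in the same order, at 3554, 3521 and 8433 CPM, while the other kept cells held 26.8, 99.6 and 8.26. Fcgr1, the high-affinity IgG receptor of monocytes and macrophages, reached 94.4, 149.7 and 659 CPM, and 1 cell gave 53.8% of the 39 Kaede-green 1 UMIs. C1qa, a chain of C1q and the classical mark of tissue macrophages, was listed at 0 in Kaede-green 1 and at 225 and 72.8 CPM in the other libraries. Il1b was thus the marker shared by the gated cells of all libraries, and C1qa was found in 6 of the 147.

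The gate genes themselves differed in amount. A gated cell held 5 to 27 Lyz2 UMIs (median 11) in Kaede-green 1, 5 to 573 (median 14) in Kaede-green 2 and 6 to 589 (median 122) in Kaede-red. Cst3 ran the other way, with medians of 187, 93 and 28 UMIs per cell. Gated cells held 57.8%, 65.8% and 96.6% of all Lyz2 UMIs of the kept cells.

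Cells close to the Lyz2 threshold were mostly Kaede-green. With the other criteria met, 23 cells had 5 or 6 Lyz2 UMIs, of which 22 were Kaede-green, and 43 cells just outside had 3 or 4, of which 39 were Kaede-green. Flt3 was detected in 14 of the 23 cells inside and in 29 of the 43 cells outside. No cell that met the Lyz2 threshold failed the Cst3 threshold, and only 3 had 3 to 5 Cst3 UMIs. A further 34 cells met both thresholds but carried Cd3e, Ncr1 or Cd79a above the limits.

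**Figure D2:**
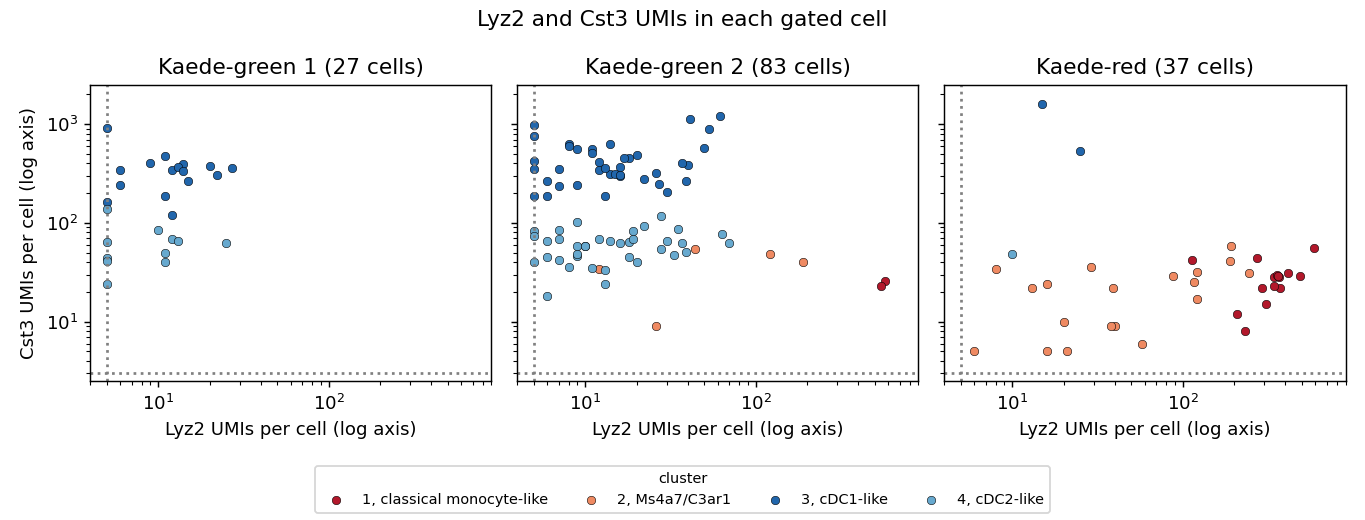
Lyz2 (x axis) against Cst3 (y axis) UMIs of each gated cell, both on log axes, in 1 panel per library, with dotted lines at the gate and colors for the 4 clusters. The Kaede-green cells had median Lyz2 counts of 11 and 14 UMIs, although single Kaede-green 2 cells reached 573, and their Cst3 was higher in cluster 3 (medians 345 and 366) than in cluster 4 (62 in both libraries). Most Kaede-red cells had low Cst3 and up to 589 Lyz2 UMIs.

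Ward clustering of the 147 gated cells on their 1000 most variable genes gave 4 clusters, numbered by falling median Lyz2 (357, 39.5, 13 and 11 UMIs per cell). Genes that define a cluster are a description of it and were not tested. Cluster 1 (17 cells) was classical monocyte-like: Mmp8, A330040F15Rik, Hp and Cd177 led it, the last of which was listed as a neutrophil gene, and all 11 listed classical monocyte markers were present at 20 CPM or more and at no less than 0.25 of their highest cluster. Cluster 2 (24 cells) was led by Cd63, Ms4a7, Cd72 and C3ar1, with 13 of 17 macrophage markers but also 7 of 11 classical and 7 of 7 nonclassical monocyte markers by the same criterion, and it was left without a cell type name.

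The other clusters were led by dendritic genes. Cluster 3 (57 cells) was cDC1-like, led by Gcsam and by Xcr1, the receptor through which cDC1 meet CD8 T cells, and it held 6 of 6 cDC1 markers, among them Batf3 and Clec9a. Cluster 4 (49 cells) was led by Cd209d, Cd209a, Gria3 and Cd7, with 4 of 5 cDC2 markers. It is called cDC2-like after these genes alone. It also met the criterion for 6 of 11 classical monocyte markers, 1 fewer than cluster 2, though none of the 11 was highest there. Of its 49 cells, 21 carried a UMI of both small gene sets above. Csf1r was detected in 63.3% of its cells, Cd14 in 61.2%, Fcgr1 in 53.1% and Ly6c2 in 93.9%, and H2-Aa in 32 of 49. Whether the cells of cluster 4 were cDC2 or came from monocytes was not tested. In cluster 3, no cell carried any of the 4 genes of the small monocyte set, but Ly6c2 was detected in 63.2% and Ccr2 in 61.4% of its cells, and it met the criterion for 3 of 11 classical monocyte markers. Ly6c2 was also detected in 80.6% of the Kaede-green 2 Cd3e cells.

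Clusters 1 and 2 held 0 of 27 Kaede-green 1 cells, 7 of 83 Kaede-green 2 cells (8.43%, interval 3.46 to 16.6%) and 34 of 37 Kaede-red cells (91.9%, interval 78.1 to 98.3%). Cluster 3 held 16, 39 and 2 cells in the same order, and cluster 4 held 11, 37 and 1. The Kaede-green libraries agreed in these shares within their intervals. With the listed markers and gate genes kept out of the clustering, 146 of 147 cells stayed on the same side. Since Kaede-red was 1 library, clusters made mostly of its cells cannot be told apart from that library, and only the 7 Kaede-green 2 cells joined clusters 1 and 2 from elsewhere. As shares of all kept cells, Kaede-red held 0.313% in clusters 1 and 2 and 0.0276% in clusters 3 and 4, against 0.0632% and 0.686% in Kaede-green 2 and 0% and 0.27% in Kaede-green 1.

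**Figure D3:**
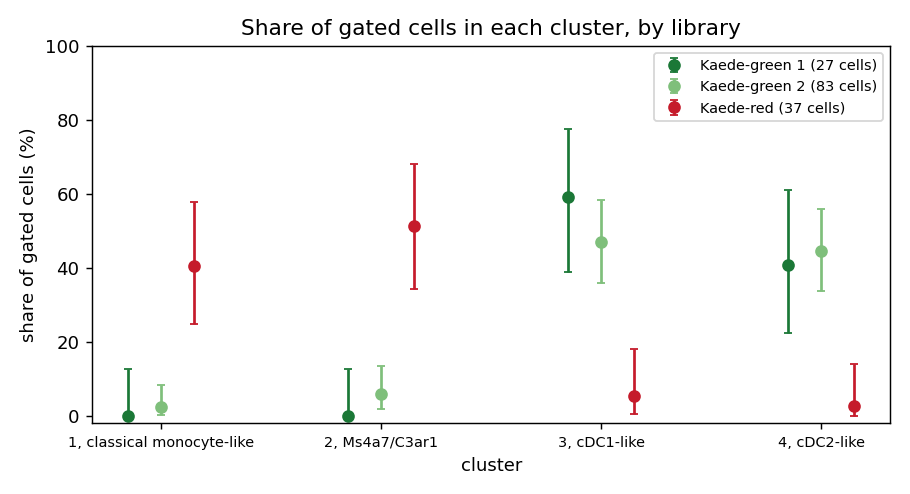
Share of each library's gated cells in the 4 clusters (y axis, %), as points with 95% Clopper-Pearson intervals. Kaede-red cells fell mainly in clusters 1 (40.5%) and 2 (51.4%), and those of both Kaede-green libraries in clusters 3 and 4.

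RNA of other cell types was low in the gated cells, although 9, 59 and 15 of them held at least 1 UMI of 9 lymphoid genes. The gate itself limited Cd3e, Ncr1 and Cd79a, so these genes are left out of the sums that follow, and low sums of genes found with them are in part set by the gate. The T cell list without Cd3e (9 genes) summed to 50.8, 244 and 98.3 CPM in gated cells, given by library as before, with Trbc2, Trbc1 and Trbc1 the most abundant, against 4041, 4493 and 4409 in the other kept cells. The NK cell list without Ncr1 (8 genes, led by Klrk1 in each library) summed to 450.0, 580.3 and 466, against 9884, 8978 and 9036. Nkg7, a granule protein of cytotoxic lymphocytes, was detected in 78.3% of Kaede-green 2 gated cells but at a median of 1 UMI. Only 2 gated cells, 1 in Kaede-green 2 and 1 in Kaede-red, held more than 10 Nkg7 UMIs, and the Kaede-red cell gave 65.9% of that library's count. More than 20 Gzmb UMIs were found in 2 gated cells of Kaede-green 2 (at most 86) and 1 of Kaede-red. The highest count of a single cell was 53 for Gzma in Kaede-red and 21 for Trbc2 in Kaede-green 2.

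The neutrophil list (8 genes) summed to 4.84, 13.0 and 98.3 CPM in gated cells, and to 164 in cluster 1, where 2 of the 8 met the marker criterion. S100a8, a defining transcript of neutrophils, was listed at 0 in both Kaede-green libraries and at 3.64 CPM in Kaede-red, and Ly6g was detected in no gated cell. Csf3r and Cd177, which neutrophils share with some monocytes, reached 45.5 and 41.9 in Kaede-red. The mast cell or basophil list summed to at most 1.82, the plasmacytoid list to at most 21.8 and the B cell list without Cd79a to at most 77.9, of which Ighm was the most abundant gene. The list for mature migratory dendritic cells summed to 43.5, 49.2 and 14.6, and Ccr7, which guides them to lymph nodes, was at 14.5, 28.7 and 0. The tumor or stromal list summed to 24.2, 11.6 and 16.4, with Pecam1 its most abundant gene.

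C1qa, intended to divide the members into a macrophage class and the rest, did so for few cells. Of the gated cells, 5 carried 2 or more C1qa UMIs, 1 carried 1, and 141 carried none. The 5 cells comprised 0 of 27 in Kaede-green 1, where 3 counts, the limit used for a count of 0, would be 11.1% (Clopper-Pearson upper bound 12.8%), 4 of 83 in Kaede-green 2 (4.82%, interval 1.33 to 11.9%) and 1 of 37 in Kaede-red (2.7%, interval 0.0684 to 14.2%). The model across genes needed at least 10 cells of each class in a library and was not run, so the values that follow have no test.

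The 5 cells were all in cluster 2, and each carried the 3 chains of C1q together. In Kaede-green 2 they held 13, 35, 132 and 148 C1qa UMIs, with 8, 17, 98 and 129 of C1qb and 11, 15, 73 and 107 of C1qc in the same order. The Kaede-red cell held 40, 75 and 26. The 3 genes lie beside each other on chromosome 4 (C1qa at GRCm38 chr4:136895917-136898803, minus strand). Flt3 was at 0 in all 5 cells, Ms4a7 at 6 to 69 UMIs and Fcgr1 at 4 to 37 UMIs. Mrc1 and Folr2, which mark some resident macrophages, were at 0 in each of them.

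The summed 4 Kaede-green 2 cells (89104 UMIs) were set against the 78 members of that library without C1qa. Only 1 of the 4 held no UMI of the 9 lymphoid genes. Apoe, a lipid carrier made by macrophages, stood at 5387 CPM (exact Poisson interval 4916 to 5891) against 35.6. Ccl7, a monocyte-attracting chemokine, stood at 5522 against 0.742, from 3 of the 4 cells. Ccl12 stood at 2693 against 0.742, with 15, 2, 14 and 209 UMIs in the 4 cells, so that 1 cell gave most of its count. Not all chemokines were higher in the C1qa cells, as Ccl6 stood at 44.9 against 151. Trem2, a lipid receptor, had 33 UMIs in 3 of the 4 cells and 0 in the 78. H2-Aa stood at 5062 against 5193 and Il1b at 5668 against 3447, but 1 cell gave 69.6% of the H2-Aa UMIs and 1 gave 76.0% of the Il1b UMIs of the 4, and without that cell the levels were 2369 and 1891, both below those of the 78. Most of the 78 cells were in clusters 3 and 4, so the comparison also set cluster 2 against those clusters. Against the 3 Kaede-green 2 cells without C1qa in clusters 1 and 2, Apoe stood at 868 CPM, Ms4a7 at 41.3, Il1b at 8475 and Lyz2 at 26996, the last against 2278 in the C1qa cells.

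Most kept cells with 2 or more C1qa UMIs were outside the gate. Of 65 kept cells with 2 or more C1qa UMIs, 60 were not members. Lyz2 was under 5 UMIs in 56 of the 65, and 48 carried Cd3e above 1 UMI or any Ncr1 or Cd79a. Of the 14 kept cells with more than 10 C1qa UMIs, 5 were members and 9 were not, and 8 of these 9 carried a lymphoid marker. The median of the 60 non-members was 2 UMIs. In Kaede-green 2, 277 kept cells held at least 1 C1qa UMI, against 16 in Kaede-green 1 and 51 in Kaede-red.

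Between the colors, 127 of 4602 genes with at least 50 UMIs over the gated cells (2.76%) were at least 4-fold above both Kaede-green libraries in Kaede-red, and 45 (0.978%) were at least 4-fold below both. No test stands behind these calls, and 35 of the 127 no longer met the rule once the Kaede-red cell with most UMIs of the gene was left out, although 31 of the 35 were still at least 3-fold higher. Between the 2 Kaede-green libraries, 84 of the genes (1.83%) were 4-fold apart. Against Kaede-green 2 alone the counts were 131 and 47, and against Kaede-green 1 alone, where fewer genes reached 50 UMIs, 205 and 16. With at least 100 UMIs the counts were 84 and 14, and with a pseudocount of 2 they were 121 and 23. Without gated cells that held UMIs of the 9 lymphoid genes they were 80 and 7. The median gene was 0.11 and 0.13 (log2) lower in Kaede-red than in Kaede-green 1 and Kaede-green 2. Lyz2, a gate gene, was among the 127. Because the colors held different cell types, fewer cells of a type and less RNA per cell cannot be told apart in these sums.

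The called genes with the widest gaps included several known from monocytes. Thbs1, a matrix glycoprotein made by monocytes, had 0, 7 and 752 UMIs in Kaede-green 1, Kaede-green 2 and Kaede-red gated cells, from 29 of the 37 Kaede-red cells. Chil3, a chitinase-like protein of monocytes, had 0, 15 and 470 UMIs, and Slfn4, an interferon-induced gene of myeloid cells, 1, 4 and 144. Tarm1, Id3, Vcan, Clec4d and Apoc2 completed the 8 highest, each with at most 18 UMIs in either Kaede-green library and 53 to 173 in Kaede-red. Among the 8 lowest, Cd7 had 137, 315 and 3 UMIs, Kcnq1ot1, an imprinted noncoding RNA, 34, 61 and 0, and Upb1 41, 142 and 2. Gcsam, Timd4, L1cam, Cd209d and Anpep had 0 to 2 UMIs in Kaede-red and 12 to 83 in each Kaede-green library. Timd4 was found in only 3 Kaede-green 1 and 5 Kaede-green 2 cells, and 1 cell gave 69.4% of its 36 Kaede-green 1 UMIs.

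Within clusters 1 and 2, where cells were more alike, 110 of the 127 genes had at least 50 UMIs over the 7 Kaede-green 2 and 34 Kaede-red cells, and 22 of these were at least 4-fold higher in Kaede-red there. The median difference of the 110 was 0.96 (log2) in favor of Kaede-red, and 21 of them were higher in Kaede-green 2. The same 34 Kaede-red cells had taken part in choosing these genes, so a difference in that direction is no support for them. Of all 1741 genes with at least 50 UMIs in these cells, 39 (2.24%) were at least 4-fold higher and 21 (1.21%) at least 4-fold lower in Kaede-red, 813 were higher in Kaede-green 2, and the median was 0.047. Thbs1 stood at 50.9 and 1548 CPM, Chil3 at 109 and 967, and Il15 at 7.27 and 173. Spp1, Hmox1, Bnip3 and Hilpda, of which the last 2 are induced by low oxygen, were also among the 22, and 1 cell gave 42.7% of the 103 Kaede-red Spp1 UMIs. The 7 Kaede-green 2 cells included 4 of the C1qa cells, so this was a comparison of unlike subsets as well.

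**Figure D4:**
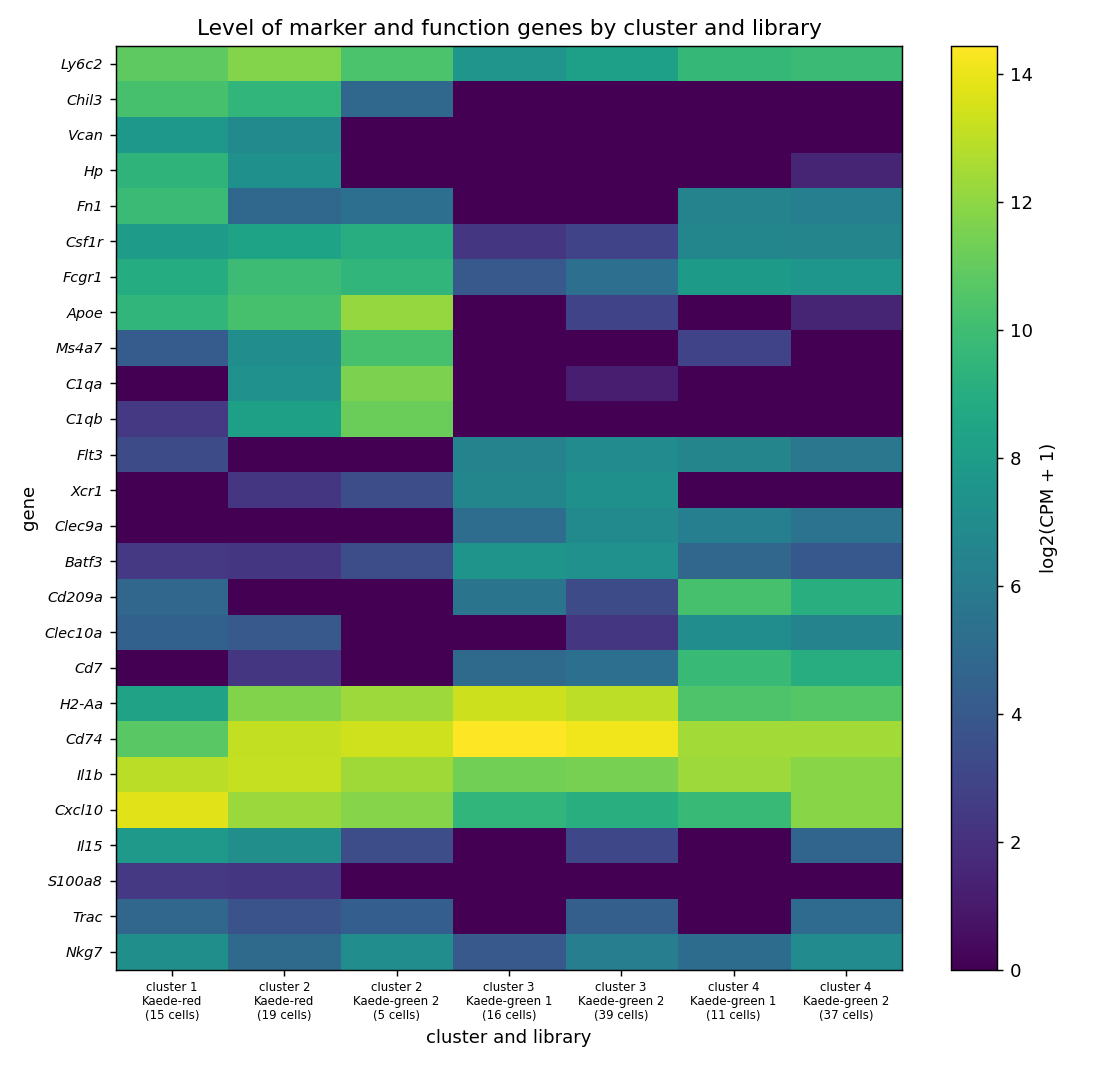
Levels of 26 genes (rows) in each cluster and library with at least 5 cells (columns), as log2(CPM + 1) of the summed cells. Lyz2-high clusters 1 and 2 carried Csf1r and Fcgr1, and in both Kaede-green libraries cluster 3 carried Xcr1 and Batf3 and cluster 4 Cd209a and Cd7.

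Of 11 classical monocyte genes, all 11 passed the minimum of 50 UMIs, and 4 (Chil3, Vcan, Fn1 and Hp) were called higher in Kaede-red and none lower, where over all genes tested 2.76% were called higher and 0.978% lower. Ly6c2, the surface mark of classical monocytes, stood at 402, 632 and 2411 CPM in Kaede-green 1, Kaede-green 2 and Kaede-red, but the other kept cells, which are largely lymphocytes, held 1128, 1091 and 938. Plac8 stood at 1824, 1498 and 5017. Of 17 macrophage genes, 11 passed the minimum and 1 (Fcgr1) was called higher, against the same 2.76%. The nonclassical monocyte list had no call among 3 genes that passed, too few to differ from the shares over all genes. Nr4a1 stood at 300.0, 265 and 371.

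Of the 15 genes of the shared, cDC1 and cDC2 dendritic lists, 13 passed the minimum, 4 (Flt3, Clec9a, Batf3 and Cd7) were called lower in Kaede-red, where 0.978% of all genes tested were, and none higher. Cd209a stood at 467, 209.8 and 60.1 CPM, and 1 cell gave 81.8% of the 33 Kaede-red UMIs. Within cluster 3, Xcr1 stood at 99.0 (46.2% of its UMIs from 1 cell) and 153 CPM in Kaede-green 1 and Kaede-green 2, and Irf8, a transcription factor that cDC1 need, at 731 and 1263. Within cluster 4, Cd209a stood at 1200.0 and 542, and 1 Kaede-green 1 cell gave 42.5% of its UMIs, without which the level was 756. Of 2423 genes with at least 50 UMIs in cluster 3, 95.1% were within 2-fold between the Kaede-green libraries, and of 1818 in cluster 4, 94.1%.

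Genes of antigen presentation were abundant in all 3 libraries. The 8 MHC class II genes, which display peptides to CD4 T cells, summed to 36470.0, 28599 and 18487 CPM in the gated cells, and to 1170.2, 1594 and 335 in the other kept cells. H2-Aa was found in 24 of 27, 67 of 83 and 19 of 37 gated cells, and the 3 Kaede-red cells of clusters 3 and 4 gave about as many H2-Aa UMIs (935 of 1869) as the other 34. The classes differed, as H2-Aa stood at 10342 and 8031 in cluster 3 of the Kaede-green libraries, at 1412 and 1610.2 in their cluster 4, at 3369 in cluster 2 and at 313 in cluster 1 of Kaede-red. In the last, 71 of the 72 UMIs came from 1 cell, and without it the level was 4.61. Summed over its cells of all libraries, the MHC class II list stood at 46717 CPM in cluster 3, 21131 in cluster 2, 11233 in cluster 4 and 2369 in cluster 1. Of the 8 genes, Ciita, the activator of the others, was called lower in Kaede-red (50.8, 49.9 and 10.9), where 0.978% of all genes tested were. No call was made among 10 costimulation genes past the minimum (2.76% of all genes tested were called higher and 0.978% lower), a list too short for this to differ from those shares, and Cd86, a ligand that activates T cells, stood at 232, 199 and 309.6.

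Among inflammatory cytokine genes, 7 of the 11 past the minimum were called higher in Kaede-red, where 2.76% of all genes tested were, and none lower. They were Il1a, Il1rn, Il10, Il18, Tnf, Osm and, of the list's genes that are not cytokines, Ptgs2, a prostaglandin-making enzyme. One cell gave 84.4% of the 45 Kaede-red Il10 UMIs, and without the highest Kaede-red cell of each gene the calls of Il10 (7.82-fold to 1.33-fold), Il1a (5.15-fold to 3.74-fold) and Tnf (4.75-fold to 3.37-fold) were lost. Within clusters 1 and 2, Kaede-green 2 was the higher library for Tnf (531 against 397 CPM), Il1a (138 against 72.0) and Ptgs2 (1084 against 642). One of its 7 cells gave 89.5% of the Il1a and 1 gave 59.1% of the Ptgs2 UMIs, and without that cell the levels there were 17.8 and 507, below Kaede-red, while Tnf stood at 490. Il1rn, the natural inhibitor of interleukin 1, had 0 UMIs in Kaede-green 1, stood at 103 CPM in Kaede-green 2 and at 931 in Kaede-red, and was found in 31 of 37 Kaede-red cells. In Kaede-green 2, 129 of its 151 UMIs came from the 7 cells of clusters 1 and 2, where its level (938) was close to that in the same clusters of Kaede-red (1042). Il1b in cluster 4, the cDC2-like cells, stood at 5191 and 3687 in the Kaede-green libraries.

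**Figure D5:**
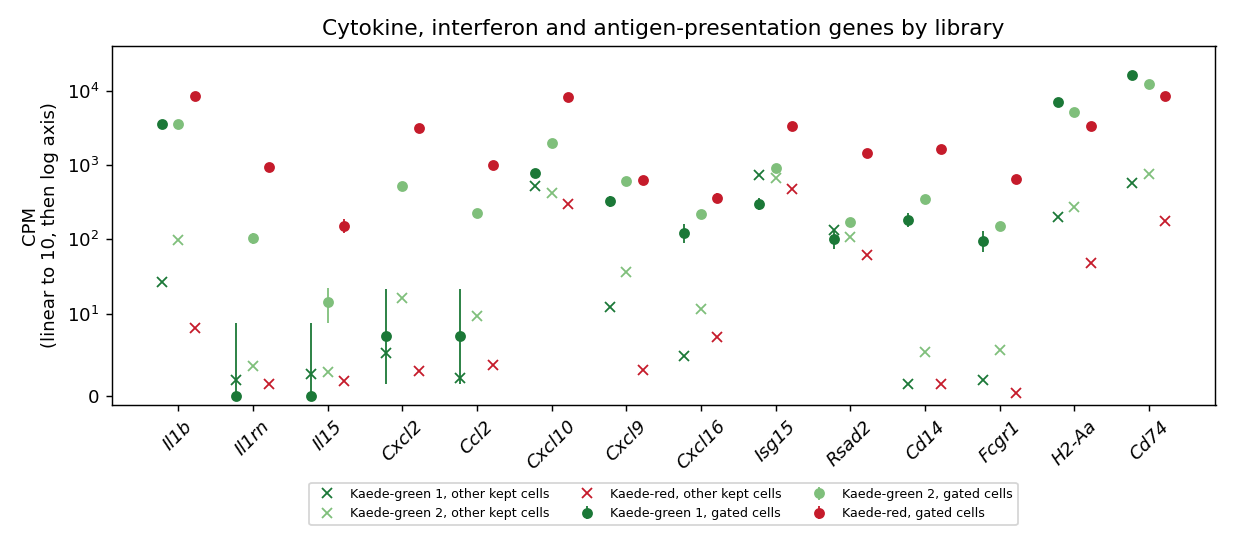
CPM (y axis, linear to 10 and logarithmic above) of 14 genes in gated cells (circles, with exact Poisson intervals) and in the other kept cells (crosses) of each library. Kaede-red gated cells were highest for the cytokine and interferon genes, by little for Cxcl9 (639 against 614 in Kaede-green 2), and lowest for H2-Aa (3403) and Cd74 (8491).

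Chemokines recruit monocytes, neutrophils and lymphocytes. Of 12 genes past the minimum, Ccl2, Ccl3, Cxcl2 and Cxcl10 were called higher in Kaede-red (2.76% of all genes tested were). Within clusters 1 and 2 the order turned for 3 of the 4: Ccl2 stood at 2349 CPM in Kaede-green 2 and 1128 in Kaede-red, Ccl3 at 1157 and 638, and Cxcl2 at 5513 and 3487. Without the highest of the 7 Kaede-green 2 cells for each gene, the levels there were 1595, 861 and 3565, the last close to Kaede-red. One Kaede-red cell gave 52.3% of the 310 Ccl3 UMIs, and without it the gene stood 2.10-fold above Kaede-green 2, from 4.3-fold. Without their own highest Kaede-red cells Ccl2 and Cxcl10 came to lie just under the 4-fold limit (3.75-fold from 4.41-fold and 3.8-fold from 4.20-fold), and Cxcl2 kept its call. Cxcl10, which attracts activated T and NK cells, was found in 13 of 27, 54 of 83 and 35 of 37 gated cells at 774, 1982 and 8322 CPM, against 526, 424 and 298 in the other kept cells. Its level was 13972 in cluster 1 of Kaede-red. Cxcl9, of the same receptor, did not follow it, at 324, 614 and 639. Cxcl2 stood at 7.26, 526 and 3176, and 1 cell gave 47.9% of the Kaede-green 2 UMIs. Ccl5, a lymphocyte product, was at 94.4, 164 and 384 in gated cells and at 4793, 3576 and 966 in the others.

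Genes that signal to NK cells included Il15, the cytokine on which NK cells depend. Il15 had 0, 21 and 84 UMIs in Kaede-green 1, Kaede-green 2 and Kaede-red gated cells, or 0, 14.4 and 153 CPM (interval in Kaede-red 122 to 189), and the other kept cells held 2.74, 2.89 and 1.81. It was found in 19 of 37 Kaede-red gated cells, all of them in clusters 1 and 2. Of 8 genes of this list past the minimum, Il15, Il18, Cxcl10 and Ptgs2 were called higher in Kaede-red (2.76% of all genes tested were), of which Cxcl10 was near the limit (4.20-fold) and Ptgs2 was higher in Kaede-green 2 within clusters 1 and 2, as given above. Il12b, a subunit of interleukin 12, was at 0, 0.684 and 7.28, and Raet1e, a ligand of the NK receptor NKG2D, was at 0 in all 3 libraries. Tgfb1, which restrains NK cells, stood at 235, 222 and 570.0 in the gated cells and at 507, 452 and 443 in the others.

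The summed level of interferon-induced genes was highest in Kaede-red gated cells and lowest in the other cells of that library. Of 14 past the minimum, 6 were called higher (Ifit1, Ifit2, Ifit3, Rsad2, Oasl2 and Gbp2; 2.76% of all genes tested were) and none lower (0.978%), and without their highest Kaede-red cells all but Ifit2 (3.85-fold from 4.36-fold) kept the call. Rsad2, an antiviral enzyme, stood at 102, 169.5 and 1437 CPM in gated cells. The list summed to 1766, 3096 and 11580 in gated cells and to 2525, 2213 and 1478 in the other kept cells.

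Receptors for microbes and antibodies were also among the called genes. Of 6 pattern recognition receptors past the minimum, Cd14, Clec4d, Clec4e and Clec4n were called higher in Kaede-red (2.76% of all genes tested were). Cd14, a receptor for bacterial lipopolysaccharide, stood at 184, 349 and 1650 CPM, and within clusters 1 and 2 at 1986 in Kaede-green 2 (1575 without its highest cell) and 1822 in Kaede-red. Of 5 Fc receptor genes, Fcgr1 and Fcgr3 were called higher (2.76% of all genes tested were). Of 11 complement genes past the minimum, C3, Cfb, C5ar1 and Itgam were called higher (2.76% of all genes tested were). Within clusters 1 and 2, Cfb stood at 378 CPM in Kaede-green 2 and 224 in Kaede-red, and C5ar1 at 131 and 80.3, so that both were higher in Kaede-green 2, and without its highest Kaede-green 2 cell Cfb stood at 198.

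Among genes of digestion and metabolism, Ctsd, a protease, was called higher of 17 lysosomal genes past the minimum, a share to be read beside the 2.76% of all genes. It stood at 19.4, 50.6 and 209 CPM, and at 238, 227 and 403 in the other kept cells. Within clusters 1 and 2 Ctsd was not higher in Kaede-red, at 247 in Kaede-green 2 (50% of its UMIs from 1 cell) and 235 in Kaede-red. Against the same share, Fabp5 and Msr1 were called among 10 lipid and phagocytosis genes, and Slc2a1, a glucose transporter, Bnip3 and Ero1l among 12 hypoxia and glycolysis genes. Among 8 transcription factors past the minimum, Zeb2 was called higher at 4.02-fold, near the limit as Ctsd was at 4.13-fold (3.64-fold and 3.83-fold without their highest Kaede-red cells), and Cebpb, a factor of inflammatory myeloid genes, stood at 162, 452 and 1490. Of 4 cell cycle genes past the minimum none was called, where 2.76% of all genes tested were called higher and 0.978% lower. This list is too short to differ from those shares. Mki67, a mark of dividing cells, was found in 0, 10 and 4 gated cells.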

How the data were processed

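Single-cell suspensions were sequenced with 10x 3' chemistry. The deposited matrices hold UMI counts per gene and cell that the authors made with Cell Ranger against mm10 (version 6.1.2 in the submitters' processing notes, 6.0.1 per the file headers), with no normalization. The 32285 genes and 34781 deposited cells were read with Python 3.11.15, and the study's limits were applied (1000 to 6000 genes, mitochondrial share under 7.5%). The members and gene lists were chosen with earlier results of these data known. Scrublet's own threshold marked 3 cells in all and had not worked, so no cell was removed as a doublet, and the 8% with the highest scores per library were left out as an alternative. Of the listed genes, Mx1, Clec7a and Aldoa had no unambiguous match and were not used. Some other genes are not reported here.

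Gated cells were scaled to 10000 UMIs, log-transformed and grouped by Ward clustering on 10 principal components of 1000 variable genes (scipy 1.17.1). Levels are CPM of summed counts with exact Poisson 95% intervals, and shares have Clopper-Pearson intervals. Both cover counting error only. A limit for a count of 0 uses 3 counts. A gene was called by color when Kaede-red was at least 4-fold above or below both Kaede-green libraries, with a pseudocount of 0.5 and at least 50 UMIs in gated cells. The planned quasi-likelihood model of C1qa classes was not run, since no library had 10 C1qa cells. Most named genes are those of the lists and the gate. The 8 called genes with the largest and the 8 with the smallest ratio to the nearer Kaede-green library are also named. Genes that led a cluster are named with it. Spp1, Hmox1 and Hilpda fall under none of these rules. They are examples from the called genes that were also at least 4-fold higher in Kaede-red within the Lyz2-high clusters. The color call was also run on simulated data as a self-test, the outcome of which is not given here and lends no support to the calls.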

Additional observations from a re-analysis of the deposited data

How the results depend on the processing

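With Lyz2 at 10 UMIs or more, the share of gated cells fell to 0.17% of kept cells in Kaede-green 1 and 0.506% in Kaede-green 2. Without cells that held any UMI of 9 lymphoid genes it was 0.18%, 0.217% and 0.202% in Kaede-green 1, Kaede-green 2 and Kaede-red, where it stood at 0.27%, 0.749% and 0.341%. Under both of these settings the Kaede-red share of C1qa cells became 0 (1 cell lost). Without lymphoid UMIs, Kaede-green 2 kept 1 C1qa cell of 24 gated cells, from 4 of 83. The cause of these shifts was not tested. The share of gated cells in clusters 1 and 2 stayed within its interval in each library under all 8 alternatives, which were chosen after seeing the data, as were the alternatives to the color count other than the UMI minimum and the pseudocount. The count of genes higher in Kaede-red was 84 with at least 100 UMIs, 80 without lymphoid UMIs, 92 without the Kaede-red cell with most UMIs of each gene and 131 to 205 when either Kaede-green library was left out. The count lower was 14 with at least 100 UMIs, 23 with a pseudocount of 2, 7 without lymphoid UMIs, 135 without the Kaede-red cell with most UMIs of each gene, which by its construction lowers most Kaede-red levels, and 16 to 47 when either Kaede-green library was left out. Raising the UMI minimum and leaving out cells reduced the number of genes compared, to 2892 and 2498. Scaling to the same median gene gave 160 higher and 34 lower. No alternative to the C1qa contrast could be run, with 0, 4 and 1 C1qa cells per library, nor could the color count within C1qa cells. No paired analysis was made, because there was 1 Kaede-red library and its label gives no replicate number. Single genes often rested on few cells: 1 cell often gave much of a gene's count in 27 to 83 cells.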
